A study of Mus musculus with 24 samples.

Results

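The mRNAs of 6 chemokine system genes were followed in mouse macrophages: the ligands Ccl3, Ccl4, Ccl5, Ccl6 and Ccl9 and the receptor Ccr1. A gene was taken where its symbol in both deposited tables equalled 1 of these names, which gave 6 of 56691 genes, and each of the 6 was above 0 FPKM in at least 1 library of each cell type. The study asked how Olfml3, which encodes a secreted olfactomedin-like glycoprotein, alters macrophages with and without lipopolysaccharide (LPS), the outer-membrane component of Gram-negative bacteria that triggers Toll-like receptor 4. RNA-seq of poly(A) RNA covered RAW264.7 cells, a mouse macrophage-like leukaemia line, and bone marrow-derived macrophages (BMDMs), which were grown from marrow of 8-week-old male C57BL/6 mice in medium with L929 cell supernatant. The 8 groups of 3 libraries were, in each cell type, wild-type cells with PBS, wild-type cells given LPS (100 ng/mL, 4 h), and cells named as Olfml3 knockout with either PBS or the same LPS dose and time. The RAW264.7 knockout was made with lentiviral CRISPR guides and grown from single-cell clones, so differences between clone and parent are part of that contrast, and the BMDM knockout came from Olfml3-/- mice made by CRISPR-Cas9.

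CC chemokines are small secreted proteins that bind seven-helix receptors coupled to Gi proteins and draw leukocytes along a gradient. Ccl3 and Ccl4 (macrophage inflammatory proteins 1-alpha and 1-beta) and Ccl5 (RANTES) are made by macrophages soon after a microbial signal and attract monocytes, T cells and NK cells, with Ccr1 among the receptors of Ccl3 and Ccl5. Ccl6 and Ccl9 are rodent ligands of Ccr1 that myeloid cells make without stimulation, and Ccr1 itself is carried by monocytes, macrophages and neutrophils.

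The libraries held 11638273 to 16478616 counted reads in RAW264.7 and 17121240 to 22873094 in BMDMs. Olfml3 itself was lower in the BMDM libraries named as knockout (0.0167 against 0.597 FPKM with PBS, group means) but higher in the RAW264.7 libraries so named (0.95 against 0.163 FPKM with PBS and 18.7 against 0.183 with LPS), which goes against that label at the RNA level, and the latter are called "the libraries labelled knockout" below. The genotype tag contradicts the sample title in 12 of 24 libraries, and the titles were used. Of 8 macrophage markers, 7 stood at a mean of 1 FPKM or more in every RAW264.7 group, with Mertk at 0 throughout, and all 8 did in every BMDM group. Their summed FPKM ran from 1145 to 1420 in the labelled-knockout RAW264.7 libraries with PBS, against 3344 to 3402 in wild type, and from 1215 to 1278 against 3880 to 4013 with LPS. Most of that gap was Lyz2 (a mean of 317 against 2052 FPKM with PBS), and without it the sum ran from 885 to 1012 against 1304 to 1337 with PBS, where Csf1r and Fcgr1 stood higher and Cd14, Cd68, Adgre1 and Itgam lower. With LPS the sum without Lyz2 ran from 816 to 845 against 1708 to 1762, and each of the 7 expressed markers stood lower. None of 10 neutrophil or 12 T and NK cell markers reached a mean of 1 FPKM in any RAW264.7 group. A list of 6 dendritic cell markers summed to between 8.77 and 10.2 FPKM in the labelled-knockout RAW264.7 libraries with PBS against 1.14 to 1.36 in wild type, nearly all of it Siglech (9.21 against 1.12), and to between 2.75 and 2.93 against 0.68 to 0.8 with LPS, with Cd209a at 0 throughout. In BMDMs the neutrophil list summed to between 5.57 and 8.64 FPKM over all 4 groups, and of the T and NK list Cd4 alone passed a mean of 1 FPKM, with Cd3d, Cd3e and Cd3g at 0. The study calls the replicates biological, and whether those of a group came from separate cultures or animals is not given in the sources used here, so p-values measure the spread between these libraries.

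The 5 ligand genes lie together on chromosome 11, in the order Ccl5, Ccl9, Ccl6, Ccl3 and Ccl4. In GENCODE on GRCm38 they span chr11:83525778-83530518 for Ccl5 (3 exons in the transcript with most exons, and so for the others), chr11:83572919-83578636 for Ccl9 (4 exons), chr11:83587882-83593087 for Ccl6 (4 exons), chr11:83647844-83649355 for Ccl3 (3 exons) and chr11:83662584-83664683 for Ccl4 (3 exons). Ccl4 is read from the + strand and the other four from the - strand. Ccr1 lies on the - strand at chr9:123962124-123968692, with 2 exons, beside Ccr3 and Ccr2. RefSeq promoters on GRCm38.p6 were at hand for 4 of the 6 genes, and the 250 bases before each start are printed. Of these genes, Ccl3 and Ccl9 rose with LPS in both cell types. Ccl6 and Ccr1 were lower with LPS in BMDMs as deposited, where the median expressed gene was itself lower. In wild-type RAW264.7 cells both were higher with LPS, so the 4 genes do not form 2 fixed classes. Capitals mark matches, on either strand, to the κB-like string GGGANNNNC, the interferon-response-like GAAANNGAA, the C/EBP-like TTNNGNAA, the AP-1 string TGANTCA and the TATA string TATAAA, where N is any base; all 4 stretches are on the - strand, at chr11:83649379-83649628 for Ccl3, chr11:83578637-83578886 for Ccl9, chr11:83593088-83593337 for Ccl6 and chr9:123968693-123968942 for Ccr1.
Ccl3: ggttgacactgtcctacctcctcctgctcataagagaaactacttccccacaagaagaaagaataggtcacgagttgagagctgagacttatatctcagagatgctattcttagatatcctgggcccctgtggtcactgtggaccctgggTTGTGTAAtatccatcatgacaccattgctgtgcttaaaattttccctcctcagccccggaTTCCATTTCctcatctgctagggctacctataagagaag
Ccl9: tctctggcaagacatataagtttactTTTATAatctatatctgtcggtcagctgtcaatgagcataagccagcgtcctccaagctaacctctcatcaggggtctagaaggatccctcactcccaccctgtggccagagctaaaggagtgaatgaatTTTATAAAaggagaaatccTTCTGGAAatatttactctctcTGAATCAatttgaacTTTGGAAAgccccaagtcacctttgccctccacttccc
Ccl6: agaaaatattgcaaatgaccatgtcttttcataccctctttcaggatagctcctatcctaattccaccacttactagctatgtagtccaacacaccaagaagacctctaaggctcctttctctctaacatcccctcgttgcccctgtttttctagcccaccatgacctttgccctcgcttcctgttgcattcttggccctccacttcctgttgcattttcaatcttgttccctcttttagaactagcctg
Ccr1: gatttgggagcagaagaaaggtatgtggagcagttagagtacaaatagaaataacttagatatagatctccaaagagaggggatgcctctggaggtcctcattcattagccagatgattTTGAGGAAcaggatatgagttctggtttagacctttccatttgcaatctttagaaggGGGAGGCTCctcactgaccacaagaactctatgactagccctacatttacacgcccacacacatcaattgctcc
The Ccl3 stretch held 1 GAAANNGAA match, on the opposite strand 39 to 31 bases before the RefSeq start, and 1 TTNNGNAA match. That stretch begins at 83649379, upstream of the GENCODE end of Ccl3 at 83649355, so the match lies further from the GENCODE start. The other stretches abut their GENCODE starts. Ccl9 held 2 TTNNGNAA, 1 TGANTCA and 3 TATAAA matches, with 2 of the last overlapping each other on opposite strands. Ccr1 held 1 GGGANNNNC and 1 TTNNGNAA match, and the Ccl6 stretch none of the 5 strings. Over all 32851 promoters of the same length, 49.0% held GGGANNNNC, 36.8% TTNNGNAA, 12.4% TATAAA, 7.13% GAAANNGAA and 6.75% TGANTCA. GGGANNNNC and TTNNGNAA are thus common and the other strings less so, and a match to any of them describes letters only.

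The order of the resting levels is given for each cell type. FPKM is fragments scaled to gene length and library size, so that levels of different genes may be compared. In wild-type RAW264.7 cells with PBS the order was Ccl3 at 184 ± 29.4 FPKM (SD, n = 3), Ccl9 at 103 ± 7.69, Ccl4 at 35.0 ± 6.16, Ccl5 at 1.36 ± 0.200, Ccl6 at 0.213 ± 0.0635 and Ccr1 at 0.04 ± 0.01, with no overlap between neighbours in this order. In wild-type BMDMs with PBS it was Ccl9 at 212 ± 3.44 FPKM, Ccl6 at 156 ± 2.07, Ccl3 at 99.3 ± 5.02, Ccl4 at 96.2 ± 6.14, Ccr1 at 36.3 ± 1.03 and Ccl5 at 16.2 ± 0.886, where only Ccl3 and Ccl4 overlapped. RAW264.7 cells held almost no Ccr1 or Ccl6 RNA, the receptor resting on 5 reads over 3 libraries, whereas resting BMDMs held 6798 Ccr1 reads. The 2 cell types were deposited in separate tables, and no test was run between them.

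**Figure D1:**
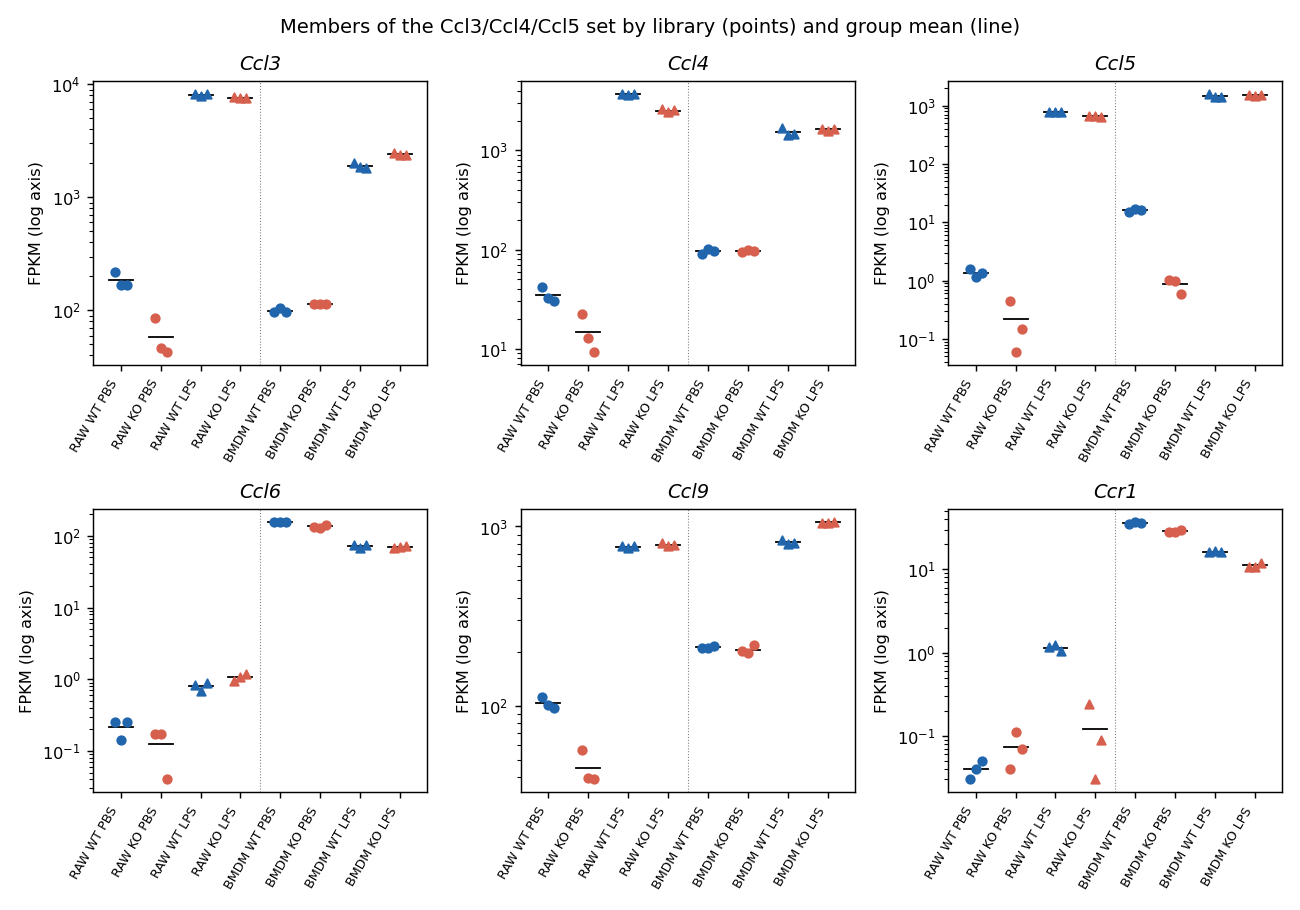
FPKM on a log axis (vertical) of each member in each of 24 libraries (points, circles for PBS and triangles for LPS, blue for wild type and red for libraries named as knockout), by group (horizontal), with a line at the mean of 3 libraries. Ccl3, Ccl4, Ccl5 and Ccl9 stand higher with LPS in both cell types, and Ccl5 in BMDM knockout cells with PBS stands at 0.59 to 1.03 FPKM against 15.2 to 17.0 in wild type.

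In RAW264.7 cells with PBS, the libraries labelled knockout held less mRNA of 4 of the 6 genes: Ccl3, Ccl4, Ccl5 and Ccl9. A gene was called at a limma adjusted p under 0.05 (Benjamini-Hochberg over 26740 genes) where the fold also reached 1.5, and 3.77% of all genes tested were called lower in this comparison. Ccl3 stood at 218, 166 and 168 FPKM in wild type and at 85.7, 46.1 and 43.1 in the libraries labelled knockout, without overlap. On the log2(FPKM + 0.1) scale used for every fold change this was -1.72 (SE 0.23, adjusted p = 0.00129), lower in 3 of 3 libraries. Ccl4, its close relative, stood at 42.1, 32.4 and 30.7 FPKM against 22.5, 12.8 and 9.32, a log2 change of -1.31 (SE 0.27, adjusted p = 0.0134). Ccl9, a constitutive Ccr1 ligand of myeloid cells, stood at 112, 100.4 and 97.2 FPKM against 56.9, 39.3 and 38.8, a change of -1.22 (SE 0.14, adjusted p = 0.000489). For each of these genes the 3 wild-type libraries stood above all 3 of the other group, and replicate 1 of the libraries labelled knockout stood nearest to wild type. Ccl5 was low in both groups, with 20, 18 and 17 reads (1.56, 1.16 and 1.35 FPKM) in wild type and 7, 1 and 2 reads (0.44, 0.06 and 0.15 FPKM) in the libraries labelled knockout. Its fitted log2 change was -2.38 (SE 0.35, adjusted p = 0.0022), and the ratio of its summed reads per library total was 0.166, with an exact 95% interval of 0.0753 to 0.328 for counting error only. Ccl6 (16 reads in wild type, 11 in the other group) and Ccr1 (5 and 10 reads) were too low to show a difference at this depth, with log2 changes of -0.51 and 0.29 (adjusted p = 0.229 and 0.565). Without replicate 1 of the libraries labelled knockout the 4 genes stayed called, with changes of -2.04 for Ccl3, -1.66 for Ccl4, -2.86 for Ccl5 and -1.40 for Ccl9. A fit of the 2 groups alone called 2 genes, Ccl3 and Ccl9, with adjusted p = 0.128 for Ccl4 and 0.0575 for Ccl5, and the call of Ccl4 was also lost without wild-type replicate 1 (adjusted p = 0.0557) or knockout-labelled replicate 2 (0.0541). With TPM scaling the median expressed gene moved to 0.20 and 72.5% of calls were higher, against 56.0% as deposited. The lower macrophage marker sum, most of it Lyz2, and the higher dendritic marker sum, nearly all of it Siglech, moved with this result, and their part in it was not tested; in bulk RNA, fewer cells that express a gene and less RNA per cell cannot be told apart.

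With LPS, Ccr1 was the 1 of 6 genes called in RAW264.7 cells, and it was lower in the libraries labelled knockout, where 7.6% of all genes were called lower. Ccr1, the receptor for Ccl3, Ccl5, Ccl6 and Ccl9, had 42, 51 and 43 reads (1.16, 1.22 and 1.05 FPKM) in wild type and 8, 1 and 3 reads (0.24, 0.03 and 0.09 FPKM) in the libraries labelled knockout. The groups did not overlap, and the fitted log2 change was -2.61 (SE 0.30, adjusted p = 0.00033). The ratio of summed reads was 0.0998, with an exact 95% counting interval of 0.0503 to 0.180. Ccl3 was at 8208, 7955 and 8236 FPKM against 7772, 7550 and 7517, Ccl5 at 782, 781 and 780.0 against 659, 654 and 645, and Ccl4 at 3699, 3599 and 3710 against 2598, 2422 and 2533. These groups did not overlap either, which describes the libraries only, as the share of all genes without overlap is not given here. The log2 changes of -0.10 for Ccl3, -0.26 for Ccl5 and -0.54 for Ccl4 did not pass (SE 0.23, 0.35 and 0.27, adjusted p = 0.871, 0.67 and 0.178). The fit shares one spread over the 12 libraries of a cell type, in which the PBS libraries of these genes varied more than those with LPS, and edgeR on the reads called Ccl4 lower as well. In a limma fit of the 2 LPS groups alone, adjusted p was 0.00177 for Ccl4, 0.0130 for Ccl5 and 0.237 for Ccl3. There Ccl4 and Ccl5 fell short only of the 1.5-fold threshold, at 1.46-fold and 1.20-fold. With TPM scaling, where the median expressed gene moved to 0.21 and 75.8% of calls were higher against 56.1% as deposited, the Ccl3 change turned to 0.14. Ccl9 (log2 change 0.03, adjusted p = 0.978) overlapped between groups, and Ccl6, on 60 and 71 reads, did not pass (0.38, adjusted p = 0.345). With LPS too the libraries labelled knockout had a lower macrophage marker sum and a higher dendritic one. The part of these sums in the Ccr1 result was not tested.

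In BMDMs with PBS, Ccl5 alone of the 6 genes was called lower in knockout cells, against 0.916% of all 26973 genes tested called lower. Ccl5 stood at 15.2, 17.0 and 16.4 FPKM in wild type (325, 356 and 345 reads) and at 1.03, 1 and 0.59 FPKM in knockout (21, 22 and 10 reads). All 3 knockout libraries stood far below all 3 wild-type libraries, with a log2 change of -4.10 (SE 0.16, adjusted p = 6.97e-07), a 17.1-fold lower level. Ccr1 was at 35.3, 37.4 and 36.2 FPKM in wild type and at 28.1, 28.1 and 29.5 in knockout. It was lower in 3 of 3 knockout libraries. Its change of -0.35 (SE 0.06, adjusted p = 0.00831) passed the p threshold but, at 1.27-fold, not the fold threshold. Ccl3 was at 96.3, 105 and 96.5 FPKM against 114, 113 and 114, and Ccl6 at 157, 154 and 158 against 131, 130 and 144. Neither pair of groups overlapped, and neither gene passed (0.20 and -0.21, adjusted p = 0.095 and 0.0805). The share of all genes without overlap is not given here, so the lack of overlap describes these libraries only. Ccl4 and Ccl9 overlapped between genotypes, with changes of 0.01 for Ccl4, which turned to -0.04 with median-ratio scaling, and -0.05 for Ccl9. Of 12 markers of T and NK cells, which can also make Ccl5, 8 were at 0 in wild type and 9 in knockout. The summed list ran from 7.74 to 8.64 FPKM against 6.57 to 6.78, nearly all of it Cd4. The part of such cells in the Ccl5 difference was not tested.

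In BMDMs with LPS, none of the 6 genes was called between genotypes by limma, where 4.76% of all genes were called in either direction. Ccl3, Ccl9 and Ccr1 had an adjusted p under 0.05 and fell short only of the 1.5-fold threshold. The share of all genes that did so is not given here. On the reads, edgeR and DESeq2 called 1 each, Ccr1. The Ccl5 gap seen with PBS was not present at this time point: Ccl5 stood at 1580, 1393 and 1382 FPKM in wild type and at 1520, 1473 and 1506 in knockout. The groups overlapped, with a log2 change of 0.05 (SE 0.16, adjusted p = 0.988) that turned to -0.11 with median-ratio scaling. Ccl3 was at 2020, 1857 and 1814 FPKM against 2453, 2381 and 2389, and Ccl9 at 845, 797 and 814 against 1051, 1046 and 1064. Both stood higher in 3 of 3 knockout libraries, by 0.35 and 0.36 on the log2 scale (SE 0.06 and 0.05; adjusted p = 0.00212 and 0.000865), below a 1.5-fold change. Ccr1 was at 16.3, 16.6 and 16.0 FPKM against 10.8, 10.5 and 12.02, a change of -0.55 (SE 0.06, adjusted p = 0.00021) at 1.46-fold, and -0.71 with median-ratio scaling, where it was called. The median expressed gene moved by 0.14 in this comparison, so that relative to it Ccl3 and Ccl9 differed by less and Ccr1 by more; the share of calls that were higher was 67.9% as deposited and 43.4% with median-ratio scaling. Ccl4 (0.10, adjusted p = 0.474) and Ccl6 (-0.04, adjusted p = 0.751) overlapped between genotypes, and Ccl4 turned to -0.06 with median-ratio scaling.

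**Figure D2:**
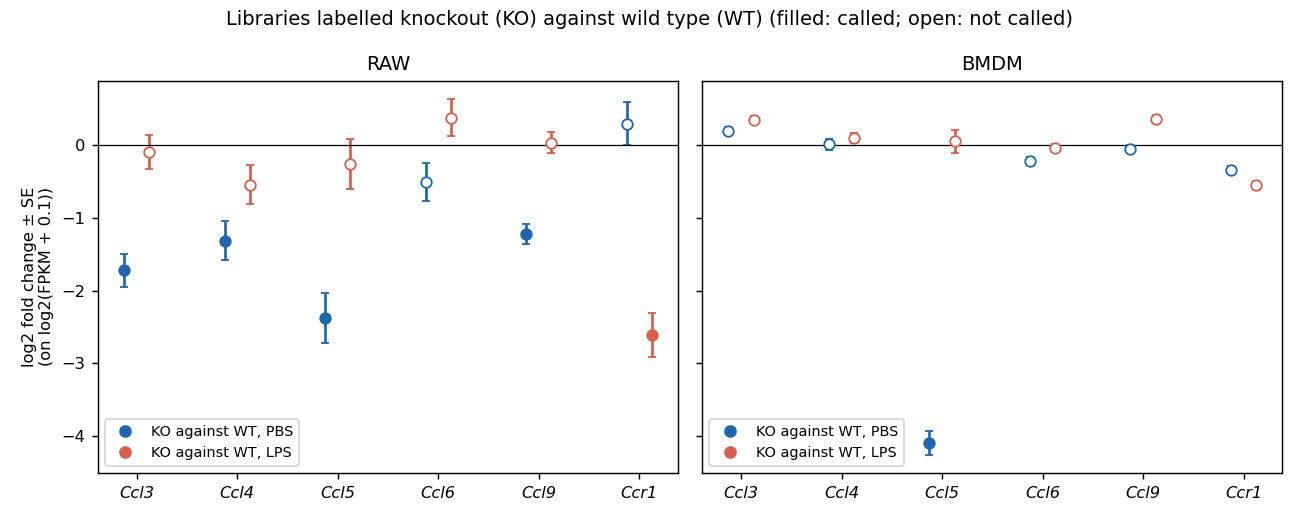
Log2 fold change on log2(FPKM + 0.1) with its standard error (vertical) of the libraries labelled knockout (KO) against wild type (WT) for each member (horizontal), for RAW264.7 (left) and BMDMs (right), with PBS in blue and LPS in red. Filled points were called and open points were not; Ccl5 in BMDMs stands at -4.10 with PBS and 0.05 with LPS, and Ccr1 in RAW264.7 at -2.61 with LPS.

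LPS raised all 6 mRNAs in wild-type RAW264.7 cells and 5 of 6 in the libraries labelled knockout, where 5.8% and 7.45% of all genes were called higher. Ccl5, Ccl4 and Ccl3 had the largest log2 changes of the 6 in both. Ccl5 went from 1.36 to 781 FPKM in wild type (log2 change 9.08, SE 0.35, adjusted p = 6.5e-08) and from 0.217 to 653 in the libraries labelled knockout (11.19, SE 0.35, adjusted p = 1.26e-08). The second fold rests on 10 reads with PBS: the ratio of summed reads was 2933, with an exact 95% counting interval of 1595 to 6117, against 581 (446 to 772) in wild type. Ccl4 rose by 6.72 and 7.49 (35.0 to 3669 and 14.9 to 2518 FPKM, SE 0.27), and Ccl3 by 5.47 and 7.10 (184 to 8133 and 58.3 to 7613 FPKM, SE 0.23), with adjusted p from 1.63e-08 to 1.17e-07. After LPS Ccl3 was the most abundant mRNA by FPKM, rank 1 of all genes, in each wild-type library and rank 2 in each library labelled knockout, and Ccl4 held rank 6 in all 6 of them. Ccl9 rose by 2.90 in wild type and 4.15 in the libraries labelled knockout (SE 0.14). Ccl6 rose by 1.54 and 2.42 (SE 0.26) but reached only 0.8 and 1.07 FPKM, on 60 and 71 reads. Ccr1 rose in wild type from 5 to 136 reads (log2 change 3.15, SE 0.30, adjusted p = 3.03e-05), while in the libraries labelled knockout it had 10 and 12 reads (0.25, adjusted p = 0.604). The median expressed gene moved by -0.21 and -0.23 in these comparisons, small beside the changes of the members called. The uncalled Ccr1 change of 0.25 in the libraries labelled knockout was of like size to that shift. The share of calls that were higher was 31.7% and 33.8% as deposited and 49.7% and 51.7% with median-ratio scaling.

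The difference between the LPS responses was itself tested. In RAW264.7 it was called for 3 of the 6 genes. The rise was larger in the libraries labelled knockout for Ccl3 (by 1.63, SE 0.32, adjusted p = 0.0356) and Ccl9 (by 1.25, SE 0.20, adjusted p = 0.0109), where 0.905% of all genes were called in that direction. It was smaller for Ccr1 (-2.90, SE 0.42, adjusted p = 0.00728), where 1.04% of genes were. The Ccl5 difference of 2.12 did not pass (SE 0.49, adjusted p = 0.0693), but it was called in 7 of 23 alternatives, edgeR and DESeq2 on the reads among them (adjusted p = 7.36e-06 and 0.000128). The differences of Ccl4 (0.77, adjusted p = 0.535) and Ccl6 (0.89, adjusted p = 0.426) did not pass either. For Ccl3, Ccl5 and Ccl9 the larger fold came with a lower PBS level, and their LPS levels were not called between genotypes. Without replicate 1 of the PBS libraries labelled knockout, 5 genes were called, with Ccl4 at 1.12 and Ccl5 at 2.60; leaving out any 1 of the other 11 libraries took Ccl3 out of the calls, at adjusted p of 0.0661 to 0.0910. In BMDMs the 1 gene of 6 called was Ccl5, with a rise larger in knockout by 4.15 (SE 0.23, adjusted p = 2.13e-05), against 1.91% of all genes called in that direction. Ccl9 had a difference of 0.42 (SE 0.07, adjusted p = 0.0081) under the fold threshold. Of all calls 65.1% were higher here as deposited and 46.8% with median-ratio scaling.

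In BMDMs LPS raised Ccl3, Ccl4, Ccl5 and Ccl9 in both genotypes and lowered Ccl6 and Ccr1. This was 4 of 6 genes higher in wild type and in knockout, where 7.94% and 8.02% of all genes were called higher, and 2 of 6 lower, where 32.5% and 30.9% were called lower. Ccl5 rose from 16.2 to 1452 FPKM in wild type (log2 change 6.48, SE 0.16, adjusted p = 5.58e-10) and from 0.873 to 1500 FPKM in knockout (10.62, SE 0.16, adjusted p = 3.19e-11). Ccl3 rose by 4.25 and 4.40 (SE 0.06), Ccl4 by 3.98 and 4.07 (SE 0.07) and Ccl9 by 1.95 and 2.36 (SE 0.05). The 3 libraries of each LPS group stood above all 3 of the PBS group for these 4 ligands. Ccl6 went from 156 to 72.5 FPKM in wild type and from 135 to 70.4 in knockout (-1.11 and -0.94, SE 0.06; adjusted p = 6.91e-08 and 2.79e-07). Ccr1 went from 36.3 to 16.3 FPKM and from 28.5 to 11.1 (-1.15 and -1.35, SE 0.06; adjusted p = 5.51e-08 and 2e-08). Both were lower in 3 of 3 libraries, but the median expressed gene was itself lower, by 0.73 in wild type and 0.62 in knockout, so that with median-ratio scaling Ccl6 stood at -0.30 and -0.24 and Ccr1 at -0.35 in wild type, none of them called, while Ccr1 in knockout stayed called at -0.66 (adjusted p = 4.45e-06). With that scaling 47.9% and 46.8% of calls were higher, against 19.6% and 20.6% as deposited.

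**Figure D3:**
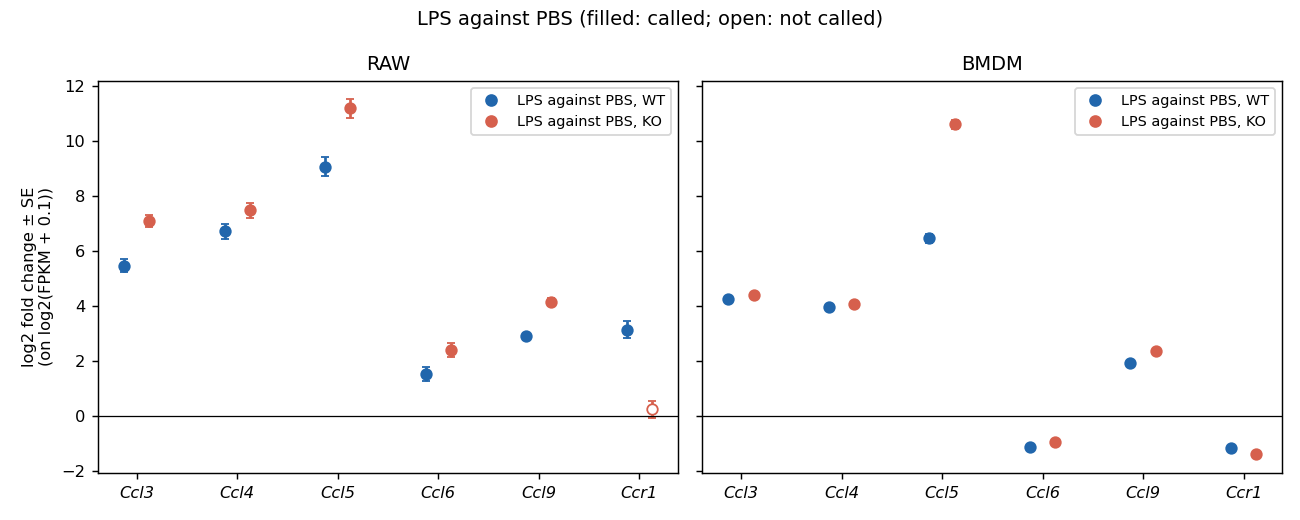
Log2 fold change on log2(FPKM + 0.1) with its standard error (vertical) of LPS against PBS for each member (horizontal), in RAW264.7 (left) and BMDMs (right), with wild type in blue and libraries named as knockout in red. Filled points were called; Ccl5 shows the widest gap between genotypes in BMDMs, 6.48 against 10.62, and Ccl6 and Ccr1 lie below 0 in BMDMs as deposited.

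The make-up of the 5 ligands differed between PBS and LPS libraries. In resting wild-type BMDMs, Ccl9 and Ccl6 made up 36.6% ± 0.785 and 26.9% ± 0.732 of their summed FPKM (SD, n = 3). With LPS, Ccl3 (32.9% ± 0.502), Ccl4 (26.4% ± 0.718) and Ccl5 (25.2% ± 0.260) made up most of it and Ccl6 made up 1.26% ± 0.0859. Knockout BMDMs showed the same order with LPS, with Ccl3 at 36.2% ± 0.325 and Ccl5 at 22.5% ± 0.0478. In RAW264.7 cells Ccl3 led in every group, from 48.6% ± 2.72 in the PBS libraries labelled knockout to 65.8% ± 0.383 in those with LPS. The summed level of the 5 had a median of 301 FPKM in wild-type RAW264.7 with PBS and 13466 with LPS, and of 583 and 5543 in wild-type BMDMs. These sums took from 0.0157% to 0.0538% of counted reads in RAW264.7 with PBS and from 1.04% to 1.19% with LPS. The ratio of Ccl3 to Ccl4, neighbouring genes read in opposite directions, ran from 5.14 to 5.49 in wild-type RAW264.7 with PBS and from 2.21 to 2.22 with LPS. In the libraries labelled knockout it ran from 3.61 to 4.62 and from 2.97 to 3.12, and in BMDMs from 1.00 to 1.51 over all 4 groups. These shares and ratios are descriptions, and no test was run on them.

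**Figure D4:**
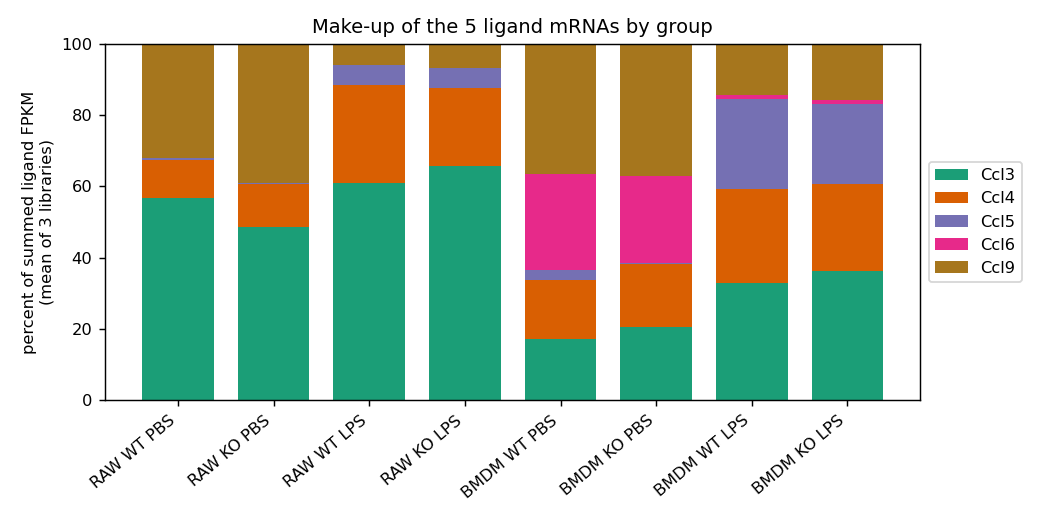
Share of the summed FPKM of the 5 ligands (vertical, percent, mean of 3 libraries) taken by each ligand (colours) in each of the 8 groups (horizontal). Ccl3 leads in every RAW264.7 group, while Ccl9 and Ccl6 lead in resting BMDMs and Ccl3, Ccl4 and Ccl5 after LPS.

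Among the other receptors of these ligands, Ccr3 differed between genotypes in BMDMs. Ccr3, the eotaxin receptor that also binds Ccl5, stood at 10.7, 10.6 and 10.2 FPKM in wild type with PBS and at 5.86, 6.56 and 6.39 in knockout. With LPS it stood at 5.58, 5.63 and 4.71 FPKM against 3.45, 3.59 and 3.23. The groups did not overlap under either condition, with log2 changes of -0.74 and -0.61 (SE 0.08; adjusted p = 0.000578 and 0.000629). The call with LPS was lost at a pseudocount of 1 and without wild-type replicate 1 or 2 or knockout replicate 3. Ccr3 was also lower with LPS than with PBS (-0.98 in wild type and -0.85 in knockout). The median expressed gene itself moved by -0.73 and -0.62 in these comparisons, so relative to it Ccr3 fell by less. Ccrl2, an atypical receptor that presents chemerin and does not signal, rose by contrast by 5.29 and 5.37 in BMDMs and by 7.30 and 7.04 in RAW264.7. Ccr3 was on 0 to 4 summed reads in RAW264.7 groups, and the decoy Ackr2 had 0 reads there and 2 reads in all 12 BMDM libraries. Of a list of 9 receptors, atypical receptors and proteoglycans linked to chemokine binding, 6 were tested in RAW264.7 and 8 in BMDMs. In RAW264.7 with PBS 0 of 6 were higher and 3 lower, against 4.79% and 3.77% of all genes: the proteoglycans Sdc1 (5.80 to 0.807 FPKM, log2 change -2.70) and Sdc4 (61.8 to 23.9 FPKM, -1.37), and Cd44. With LPS 1 of 6 was lower, Sdc1 (2.10 to 0.113 FPKM, -3.41), against 7.6% of all genes. In BMDMs 1 of 8 was lower with PBS and with LPS, Ccr3, and 0 higher, where 0.916% (PBS) and 1.53% (LPS) of all genes were called lower. The list's median log2 change was -0.70 in RAW264.7 with PBS and -0.02 in BMDMs with PBS, beside 0.02 and 0.01 over all genes tested.

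Among 15 other CC ligands, 10 were tested in RAW264.7 and 13 in BMDMs. In RAW264.7 with LPS 5 were lower in the libraries labelled knockout and 1 higher, against 7.6% and 9.73% of all genes tested. Ccl2 and Ccl7, the monocyte attractants that act on Ccr2, stood at 117, 113 and 118 FPKM against 3.93, 3.07 and 3.59, and at 9.75, 10.3 and 9.52 against 0.11, 0.38 and 0. Neither gene's groups overlapped, with log2 changes of -5.01 (SE 0.29, adjusted p = 5.03e-06) and -5.52 (SE 0.47, adjusted p = 5.96e-05), the second on 5 reads in the lower group. Ccl17 (27.5 to 6.6 FPKM, -2.05) and Ccl20 (2.42 to 0.473 FPKM, -2.14), ligands of Ccr4 and Ccr6, were lower too. In BMDMs with LPS 4 of the 13 were higher in knockout and 0 lower, against 3.23% and 1.53% of all genes: Ccl17 (2.3 to 9.95 FPKM, 2.05), Ccl22 (43.1 to 103 FPKM, 1.26), Ccl24 and Ccl2. The Ccl17 call was lost at a pseudocount of 0.01 (adjusted p = 0.267). With PBS 1 of 10 was higher and 1 lower in RAW264.7 (4.79% and 3.77% of all genes). In BMDMs with PBS 1 of 13 was lower (0.916% of all genes), Ccl12 (5.05 to 2.27 FPKM, -1.10). Its call was lost in a fit of the 2 groups alone (adjusted p = 0.0931). The median of the tested genes was -0.98 in RAW264.7 with LPS and -0.02 in BMDMs with LPS, beside 0.04 over all genes in the second. LPS raised 7 of 10 and lowered 0 in wild-type RAW264.7, where 5.8% and 12.5% of all genes were called higher and lower. In wild-type BMDMs LPS raised 7 of 13 and lowered 2, against 7.94% and 32.5% of all genes. Ccl22, a ligand of Ccr4, rose from 0.183 to 196 FPKM in the first and from 0.183 to 43.1 in the second. Among 7 other CC receptors, 5 were tested in each cell type. Between genotypes 1 was called, Ccr2, lower in RAW264.7 with LPS (0.657 to 0.313 FPKM), where 7.6% of all genes were called lower.

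**Figure D5:**
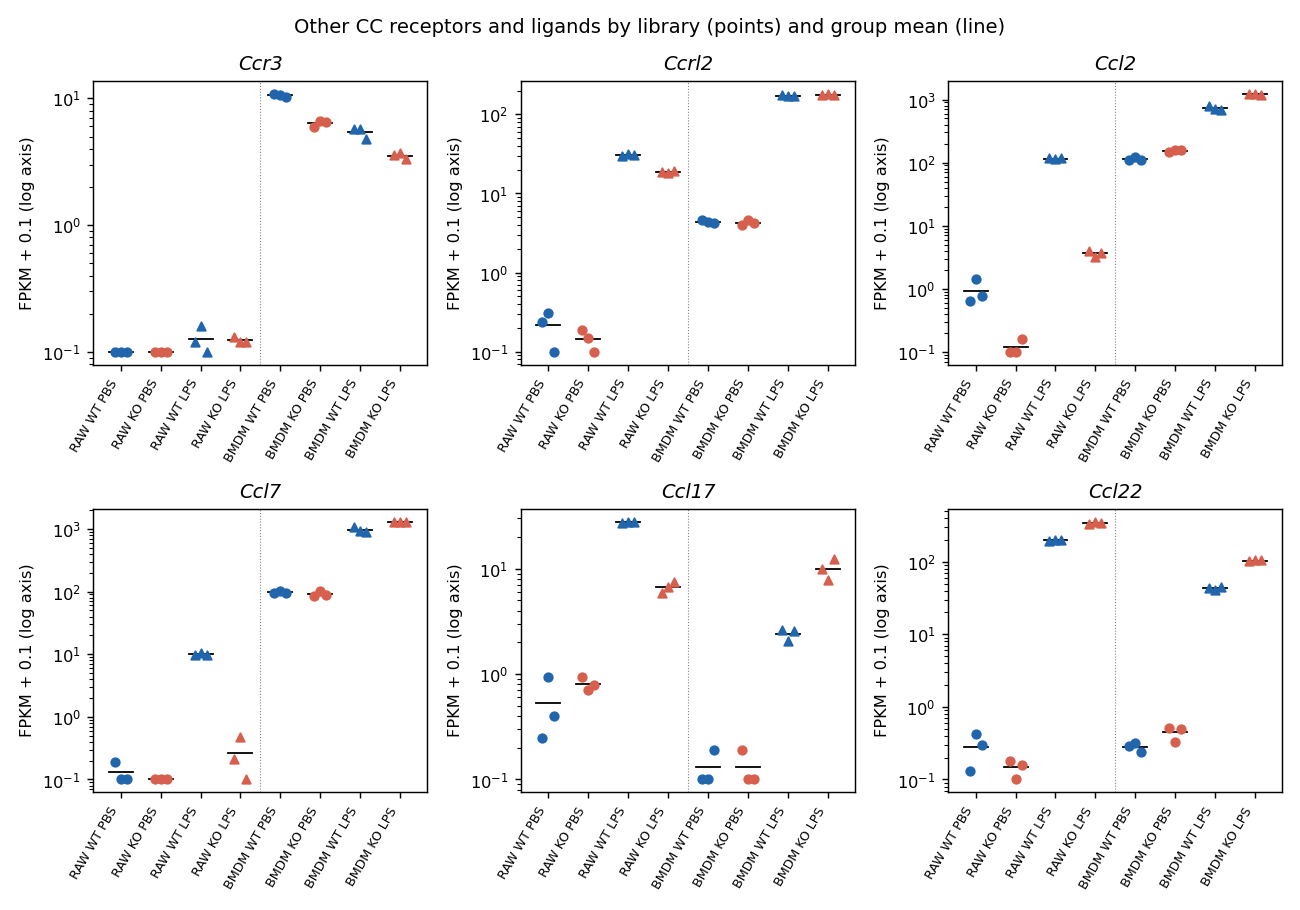
FPKM + 0.1 on a log axis (vertical) of 2 receptors and 4 other CC ligands in each of 24 libraries (points, circles for PBS and triangles for LPS, blue for wild type and red for libraries named as knockout), by group (horizontal), with a line at the group mean. Ccr3 stands lower in BMDM knockout libraries with PBS and with LPS, and Ccl2 and Ccl7 with LPS stand lower in the RAW264.7 libraries labelled knockout.

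Of 18 transcription factors and decay factors known to act on CC chemokine genes, 2 were lower and 0 higher in BMDM knockout cells with PBS, where Ccl5 was lower and 0.916% and 0.901% of all genes were called lower and higher. These were Irf7, the interferon-inducible factor that amplifies type I interferon (21.9, 27.5 and 21.2 FPKM against 2.05, 2.13 and 1.97), and Stat2 (21.0, 23.6 and 20.3 against 8.5, 8.86 and 8.81). Their log2 changes were -3.45 and -1.30 (SE 0.09 and 0.06; adjusted p = 6.85e-08 and 1.51e-06), and no groups overlapped. With LPS 2 were lower, Irf8 (171 to 40.1 FPKM, -2.09) and Jun, and 0 higher (1.53% and 3.23% of all genes). In RAW264.7 with PBS 4 were lower and 1 higher in the libraries labelled knockout (3.77% and 4.79% of all genes). Irf7 was among the lower ones (5.51, 5.12 and 4.57 against 0.43, 0.46 and 0.46 FPKM, -3.23), with Jun (18.1 to 6.41 FPKM, -1.48), Fos (9.84 to 4.11 FPKM, -1.25) and Cebpb. With LPS 5 were lower, Jun among them (11.01 to 2.06 FPKM, -2.38), and 1 higher (7.6% and 9.73% of all genes). LPS raised 12 of 18 and lowered 1 in wild-type RAW264.7, and raised 14 and lowered 3 in wild-type BMDMs, where 5.8% and 12.5% (RAW264.7) and 7.94% and 32.5% (BMDMs) of all genes were called higher and lower. The median of the 18 between genotypes ran from -0.25 to -0.01 over the 4 comparisons. Of 28 genes of chemokine receptor signalling, 4 were higher and 1 lower in RAW264.7 with PBS, 8 higher and 5 lower with LPS, none was called in BMDMs with PBS, and 2 were higher and 1 lower there with LPS, beside the shares of all genes just given for each comparison. Rgs18, a brake on Gi signalling, was on 6 reads in wild-type RAW264.7 with PBS and on 136 in the libraries labelled knockout.

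Other genes lie within or beside the ligand cluster. Rpl9-ps1, a pseudogene between Ccl6 and Ccl3, stayed at or below 0.327 FPKM in every group. An unnamed gene, ENSMUSG00000120024, overlaps Ccl3 on the other strand, and whether reads were counted by strand is not given in the sources used here, so that the reads of the pair cannot be told apart with certainty. It had 995 reads against 5987 for Ccl3 in wild-type RAW264.7 with PBS and 4645 against 261159 with LPS, and its mean level stood at 7.77 against 13.9 FPKM in the PBS libraries labelled knockout but at 82.2 against 65.2 with LPS. In BMDMs its group means ran from 10.5 to 21.2 FPKM. Likewise E230016K23Rik overlaps Ccl6, with 44 reads beside 60 for Ccl6 in wild-type RAW264.7 with LPS, which bears on the Ccl6 values in that cell type, and 16 beside 8704 in wild-type BMDMs with LPS. Within 200 kb of Ccr1, Ccr1l1 fell with LPS in wild-type BMDMs from 1.05 to 0.0533 FPKM and Ccr2 from 3.29 to 0.217, beside the lower Ccr3 given above. Fyco1, which links autophagosomes to microtubule motors, was higher in RAW264.7 with PBS in the libraries labelled knockout (1.18 to 2.91 FPKM) and with LPS (2.25 to 4.91 FPKM). Xcr1, Cxcr6 and Ccr9 stayed at or below 0.677 FPKM in every group.

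The genes whose log2(FPKM + 0.1) followed each member most closely over the 12 libraries of a cell type were, in BMDMs, Isg15 for Ccl5 (Pearson r = 0.999, n = 12), then Ddx58 (r = 0.997), both interferon-stimulated. Isg15 stood at 26.4 FPKM in wild type with PBS and 4.06 in knockout, and at 758 and 678 with LPS. Ccl3 was followed by Ptgs2 and Tnf, Ccl4 by Sdc4 and Pim1, and Ccl9 by Tnip1 and Stk40 (r of 0.999 to 1.00), Ccl6 by Lactb and P4hb (0.996 and 0.995), and Ccr1 by C3ar1 and Clec7a (0.997 and 0.996). In RAW264.7 they were Ehd1 and Isg15 for Ccl3 and for Ccl9, Slfn2 and Anxa7 for Ccl5, Rap1b and Rgs16 for Ccl4, Plk2 and Tmem39a for Ccl6, and Otor and Cry1 for Ccr1. The 12 libraries fall into PBS and LPS clusters, so a high r mostly repeats the LPS contrast, and up to 214 genes shared a member's leading r to 2 decimals.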

How the data were processed

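RNA-seq was run on 24 libraries, 3 in each of 8 groups set by sample title. The submitters' processing notes name the build mm10; the sources used here name no aligner, counter or strand setting. The coordinates in the deposited tables differ from GRCm38, so positions come from GENCODE M21 and promoters from RefSeq on GRCm38.p6. The authors deposited raw counts per gene and FPKM (fragments scaled to gene length and library size). FPKM recomputed from the deposited counts matched within 1% for 99.9% (RAW264.7) and 99.5% (BMDM) of values over 50 counts. No value column lacked a sample.

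Following the study's use of limma, limma 3.58.1 (R 4.3.3) was fitted to log2(FPKM + 0.1) in each cell type, over 12 libraries and 4 group means, for genes above 0 FPKM in at least 1 library (26740 and 26973 of 56691). A gene was called at a Benjamini-Hochberg adjusted p below 0.05 over all genes tested and a fold of at least 1.5. Alternatives were pseudocounts of 0.01 and 1, filters of 0.1 and 1 FPKM in 3 libraries, an intensity trend, TPM and median-ratio scaling, only the 2 groups compared, a replicate block, adjusted p alone, edgeR 4.0.16 (quasi-likelihood) and DESeq2 1.42.0 on counts, and leaving out each library. The fits were tested on simulated data. The named genes were the 6 members, and from the lists the 6 called genes with the largest change at 1 FPKM or more in either group of a comparison; other list genes were named after their values were seen, to complete a count of 5 or fewer or because they neighbour or bind with a member. The members and lists were chosen with earlier results of these data known. Some list genes are not reported here and were left out of the list counts. Intervals on read ratios are exact at 95% and cover counting error only.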

Additional observations from a re-analysis of the deposited data

Results flagged for a closer look

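The LPS response differed between genotypes, by the limma test of the difference itself, for 4 member results. These were Ccl3 (1.63), Ccl9 (1.25) and Ccr1 (-2.90) in RAW264.7 and Ccl5 (4.15) in BMDMs, each as the log2 change in the libraries named as knockout minus that in wild type. The Ccl3 call was lost in 12 of 23 alternatives, and only 1 of the 12 fits that left out a library kept it. Among list genes in RAW264.7 the same difference was -5.22 for Ccl7, -2.87 for Ccl17, -2.14 for Ccl20, -2.09 for Ccl2, -1.15 for Irf1, 2.41 for Irf7, 1.13 for Sdc4, 0.89 for Cd44 and -0.61 for Zfp36. In BMDMs it was 2.90 for Irf7, 2.05 for Ccl17, 1.52 for Stat2, 1.26 for Rgs16, 1.07 for Ccl12, 0.80 for Pik3cg, -0.63 for Jun and -1.83 for Irf8. The calls of other CC ligands in this difference depended on the processing: the count of 4 in RAW264.7 moved in 10 of 23 alternatives (2 to 5), and the count of 2 in BMDMs, Ccl17 and Ccl12, in 14 of 23 (0 to 4), to 0 at a pseudocount of 0.01 and without knockout PBS replicate 3, wild-type LPS replicate 2 or 3, or knockout LPS replicate 1 or 3.

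Other results drew attention because every library of one cell type lay on one side of its comparison group and every library of the other cell type on the opposite side; the difference between cell types was not tested. Ccl3 in the libraries named as knockout against wild type stood at -1.72 in RAW264.7 and 0.20 in BMDMs with PBS, and at -0.10 and 0.35 with LPS. With TPM scaling the RAW264.7 value with LPS turned to 0.14, so that opposition depends on the scaling. Ccl6 with LPS against PBS stood at 1.54 in RAW264.7 and -1.11 in BMDMs in wild type, and at 2.42 and -0.94 in the other genotype. Ccr1 in wild type stood at 3.15 and -1.15. Ccr3 in the genotype named as knockout stood at 0.30 and -0.85, on few reads in RAW264.7. With LPS the median expressed BMDM gene itself moved by -0.73 in wild type and -0.62 in knockout. With median-ratio scaling Ccl6 in BMDMs stood at -0.30 and -0.24 and Ccr1 in wild-type BMDMs at -0.35, below 0 but not called. For genotype with LPS the pairs were -2.05 and 2.05 for Ccl17, -5.01 and 0.74 for Ccl2, -5.52 and 0.43 for Ccl7, -0.65 and 0.96 for Rgs16 and 0.89 and -0.79 for Rgs1. Rgs16 with LPS in wild type stood at 6.45 and -1.18, and Rgs18 between genotypes with PBS at 3.15 and -0.38.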

How the results depend on the processing

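Of 1135 values of the members under alternatives, 1073 kept their direction and side of the threshold, 26 lost and 19 gained a call, and 17 changed sign; for 46 genotype or LPS changes of list genes named by the rule, 825 of 827 values kept both (the others were Ccl12 with PBS and Ccl17 with LPS between BMDM genotypes). Interactions of single list genes and list genes named outside the rule had no such values. The count of members called moved from 4 to 2 for RAW264.7 genotypes with PBS in a fit of the 2 groups alone, from 1 to 2 with LPS in edgeR, and from 3 to 5 for the RAW264.7 interaction in edgeR, with 2 to 5 over fits that left out a library. In BMDMs it moved from 1 to 2 (PBS) and from 1 to 2 (interaction) on adjusted p alone. For BMDM genotypes with LPS it moved from 0 to 1 with median-ratio scaling, edgeR and DESeq2 and to 3 on adjusted p alone, with 0 to 1 over fits that left out a library (1 without knockout replicate 3).

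The sign changed for small differences that were not called. In RAW264.7 with LPS, Ccl3 turned to 0.14 (TPM scaling) and Ccl9 to -0.017 (edgeR), and Ccr1 in LPS against PBS of the libraries labelled knockout ran from -0.12 to 0.57 over fits that left out a library. Between BMDM genotypes with PBS, Ccl4 turned to -0.036 (median-ratio), -0.030 (edgeR) and -0.038 (DESeq2), with -0.038 to 0.054 over fits that left out a library. With LPS, Ccl4 turned to -0.058, -0.043 and -0.062 and Ccl5 to -0.107, -0.090 and -0.109, and the Ccl4 interaction to -0.022, -0.013 and -0.024, in the same order. The cause was not tested. Ccl6 in RAW264.7 lost its call with LPS in wild type at a pseudocount of 1 (0.57).

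Counts over lists moved too. Receptor signalling genes called ran from 2 to 10 around 5 (RAW264.7, PBS), 9 to 21 around 13 (RAW264.7, LPS), 0 to 4 around 0 (BMDM, PBS) and 3 to 15 around 3 (BMDM, LPS). Transcription factors ran from 3 to 9 around 5, 6 to 12 around 6, 2 to 6 around 2 and 1 to 16 around 2. Other ligands ran from 1 to 3 around 2 (RAW264.7, PBS) and 0 to 2 around 1 (BMDM, PBS), receptors and decoys from 1 to 2 around 1 (RAW264.7, LPS) and 0 to 2 around 1 (BMDM, LPS), and other CC receptors from 0 to 2 around 1 (RAW264.7, LPS). In the interactions, other ligands ran from 2 to 5 around 4 (RAW264.7) and 0 to 4 around 2 (BMDM), and receptor signalling genes from 0 to 4 around 0 and 2 to 8 around 2. Deviations of same-numbered libraries from their group means had a mean correlation of 0.0146 in RAW264.7 (-0.039 to 0.084) and 0.0186 in BMDMs (-0.058 to 0.071), 18 pairs each. For libraries of unlike number the means were -0.0071 and -0.0093. The fit with the replicate block called 4, 1, 6, 5 and 3 members in the RAW264.7 comparisons and 1, 0, 6, 6 and 1 in BMDMs, as without it. Depth limited Ccr1, Ccl6 and resting Ccl5 in RAW264.7, on 1 to 51 reads a library.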
